A study of Ovis aries with 6 samples.

Results

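OXCT1, BDH1, BDH2 and ACAT1 are genes of ketone body use and synthesis, and they were taken by symbol from a table of 33609 genes counted in the sheep choroid plexus, the tissue whose epithelium secretes cerebrospinal fluid. Each symbol matched 1 row (identifiers 101102177, 101104112, 101106011 and 101104601), so 4 of 4 were found, and all 4 were among the 18019 genes with enough counts to be tested. The tissue came from ewes in short days (Short, 8 ewes), ewes in long days (Long, 8 ewes) and ewes in long days whose thyroid had been removed by surgery (THX, 7 ewes). The Short and Long ewes were the untreated controls with their thyroid in place, and Long and THX shared the day length. RNA of 3 to 4 ewes was mixed in equal amounts into each of 6 pools, 2 per group, so a pool is a mean over animals and the spread between ewes cannot be seen. The labels give neither breed nor age.

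Ketone bodies, acetoacetate and beta-hydroxybutyrate, are fuels that the liver makes from fatty acids and that ruminants also make from butyrate in the wall of the rumen. Tissues that burn them oxidise beta-hydroxybutyrate to acetoacetate with BDH1, a dehydrogenase of the inner mitochondrial membrane. OXCT1 then moves coenzyme A from succinyl-CoA to acetoacetate, the step that commits a ketone body to oxidation, and ACAT1, a mitochondrial thiolase, splits acetoacetyl-CoA into acetyl-CoA for the citric acid cycle. ACAT1 also serves isoleucine breakdown and can run in the direction of ketone synthesis. BDH2 is a cytosolic dehydrogenase that uses beta-hydroxybutyrate and has also been tied to the making of an iron-binding siderophore.

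The set was chosen by measured values from an earlier analysis of these pools, and which comparison they came from is not recorded. The adjusted p-values below therefore place each gene in a fit over all 18019 genes and are not independent evidence. Levels are in CPM, counts scaled to a common library total by TMM factors. A gene is said to have fallen or risen where its adjusted p by the quasi-likelihood test of edgeR was under 0.05. The log2 differences are differences between groups on the log2 scale from the same fit, with 95% intervals. Total counts ran from 48282883 to 82100653 per pool. The labels' THX group was borne out by the known thyroid hormone targets HR (2.76 and 3.36 CPM in THX pools, 23.4 to 25.6 in the other 4 pools) and KLF9 (34.1 and 36.1 CPM against 88.3 to 99.98). In bulk tissue, fewer cells of a type and less RNA per cell cannot be told apart.

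OXCT1 was lower in the pools of thyroidectomised ewes than in every other pool. It stood at 293.5 and 268.9 CPM in Short pools, 263 and 258 CPM in Long pools, and 169.9 and 157 CPM in THX pools. The 4 pools of ewes with a thyroid lay close together and the THX pools lay well below them, without overlap. OXCT1 fell from 260.2 ± 3.65 CPM (SD, n = 2) in Long to 163 ± 9.07 CPM (SD, n = 2) in THX pools, a decrease of 37.2% (log2 difference −0.67, SE 0.0802, interval −0.86 to −0.48, edgeR adjusted p = 0.0336). It also fell from 281 ± 17.4 CPM in Short to the same THX level, a decrease of 41.9% (log2 difference −0.78, SE 0.0803, interval −0.97 to −0.59, edgeR adjusted p = 0.0201). The comparisons of THX with Long and with Short share the THX pools, and are not independent of each other. Between Long and Short pools the log2 difference of OXCT1 was −0.11 (interval −0.30 to 0.08, edgeR adjusted p = 0.525). It was −0.0476 without Short pool 1 and −0.17 without Short pool 2. The order of the OXCT1 levels was thus Short, Long, THX. The Short and Long pools did not overlap, but their difference did not pass the test.

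The counts behind OXCT1 ran from 9651 to 24819 per pool, for which counting error alone is 0.635% to 1.02% of the value. The coefficient of variation between the 2 pools of a group was 6.20% in Short, 1.40% in Long and 5.55% in THX. With any 1 pool left out, the THX to Long difference of OXCT1 missed the threshold at edgeR adjusted p-values of 0.0634 (without Short pool 1), 0.0616 (Short pool 2), 0.296 (Long pool 1), 0.259 (Long pool 2), 0.076 (THX pool 1) and 0.0811 (THX pool 2), while its log2 value stayed between −0.73 and −0.61. The THX to Short difference missed it without Short pool 1 (0.127), Long pool 1 (0.0755) or Long pool 2 (0.0766), at log2 values of −0.72, −0.78 and −0.78. With only the 4 pools compared in the fit, both differences missed it (adjusted p = 0.0691 and 0.0785).

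**Figure D1:**
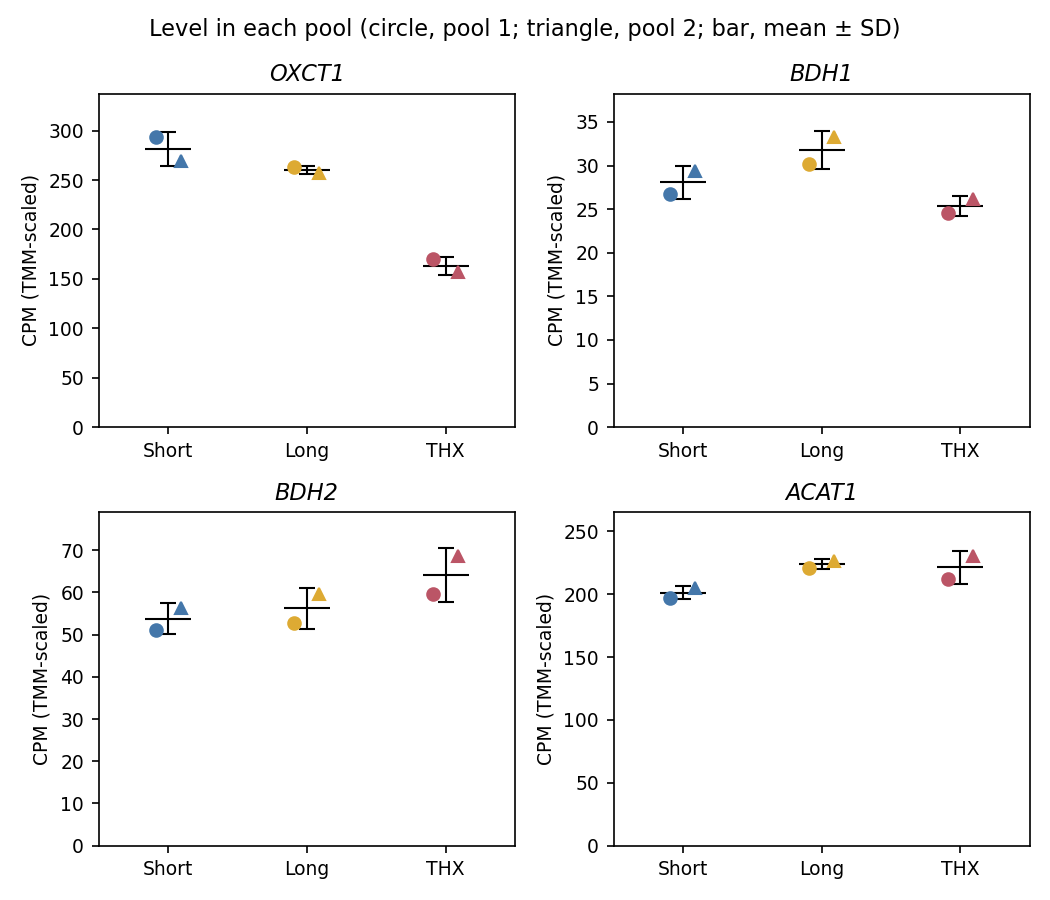
Level of each of the 4 genes in every pool, in TMM-scaled CPM on axes that start at 0; circles are pool 1, triangles pool 2, and bars the mean ± SD of the 2 pools of Short, Long and THX. OXCT1 lay between 258 and 293.5 CPM in the 4 pools with a thyroid and at 157 and 169.9 CPM in THX pools, whereas ACAT1 stayed between 197 and 231 CPM.

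BDH1, which supplies acetoacetate to OXCT1 from beta-hydroxybutyrate, had its highest level in Long pools. It stood at 26.8 and 29.4 CPM in Short pools, 30.2 and 33.3 CPM in Long pools, and 24.5 and 26.1 CPM in THX pools. The THX pools were the lowest of the 6, but only just below Short pool 1. The log2 difference from Long to THX was −0.33 (SE 0.0968, interval −0.55 to −0.10), which did not pass over all genes (edgeR adjusted p = 0.346, unadjusted p = 0.0122). From Short to Long the log2 difference was 0.18 (interval −0.05 to 0.41, edgeR adjusted p = 0.431). From Short to THX it was −0.15 (interval −0.38 to 0.08, edgeR adjusted p = 0.389). That difference was −0.0801 without Short pool 2 and −0.21 without Short pool 1. The order of the BDH1 levels was Long, Short, THX, and no neighbours in that order differed by the test. BDH1 had the fewest counts of the set, 1393 to 2263 per pool, with counting error of 2.1% to 2.68%. In the RefSeq table for sheep (ARS-UI_Ramb_v3.0) the gene overlaps a long noncoding RNA, LOC114111287, that had 61 to 146 counts per pool.

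ACAT1, the thiolase that follows OXCT1, differed little between long-day groups. It stood at 197 and 205 CPM in Short pools, 221 and 227 CPM in Long pools, and 212 and 231 CPM in THX pools. The THX pools enclosed the Long pools on both sides, and the Short pools were the lowest. The log2 difference from Long to THX was −0.01 (SE 0.0748, interval −0.19 to 0.16, edgeR adjusted p = 0.988), so that at this precision a change of OXCT1's size lay outside the interval. From Short to Long it was 0.15 (interval −0.02 to 0.33, edgeR adjusted p = 0.389) and from Short to THX 0.14 (interval −0.04 to 0.32, edgeR adjusted p = 0.306). The order of the ACAT1 levels was Long, THX, Short, with Long and THX overlapping.

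BDH2, the cytosolic dehydrogenase, was highest on average in THX pools. It stood at 51.2 and 56.4 CPM in Short pools, 52.75 and 59.6 CPM in Long pools, and 59.62 and 68.7 CPM in THX pools. The highest Long pool and the lower THX pool were nearly level, and Short and Long pools overlapped. The log2 difference from Long to THX was 0.19 (SE 0.107, interval −0.06 to 0.44, edgeR adjusted p = 0.695), from Short to Long 0.06 (interval −0.19 to 0.32, edgeR adjusted p = 0.802) and from Short to THX 0.26 (interval 0.00288 to 0.51, edgeR adjusted p = 0.217). None of these passed the test over all genes. The BDH2 difference from Long to THX was 0.0880 without THX pool 2 and 0.29 without THX pool 1. The BDH2 levels were ordered THX, Long, Short, and its pools varied most within groups, with coefficients of variation of 6.84% (Short), 8.62% (Long) and 10.03% (THX).

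Of the 4 genes, 1 fell and none rose in THX against Long pools, where 0.233% of all tested genes fell and 0.0499% rose. In THX against Short pools 1 fell and none rose, against 0.599% and 0.316% of all tested genes. In Long against Short pools none changed, and 0% of all tested genes did by edgeR, although 13.8% had an unadjusted p under 0.05. DESeq2 called 159 genes there and limma-voom 0, with none of the 4 among them. Pools that did not overlap were common. In THX against Long pools OXCT1 and BDH1 were separated downward, as were 18.7% of all tested genes, and BDH2 upward, as were 18.5%. In Long against Short pools OXCT1, BDH1 and ACAT1 were separated in either direction, as were 53.5% of all tested genes, and in THX against Short pools all 4 were, as were 52.5%. Both THX pools lay below all 4 other pools for OXCT1 and BDH1, as they did in 11.3% of tested genes, and above all 4 for BDH2, as in 11% of tested genes. Since the set was chosen with results in view, nothing is read from these shares. The log2 difference of OXCT1 from Long to THX was undercut by 4.08% of all tested genes and that of BDH1 by 11.5%, while 83.5% lay below that of BDH2.

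**Figure D2:**
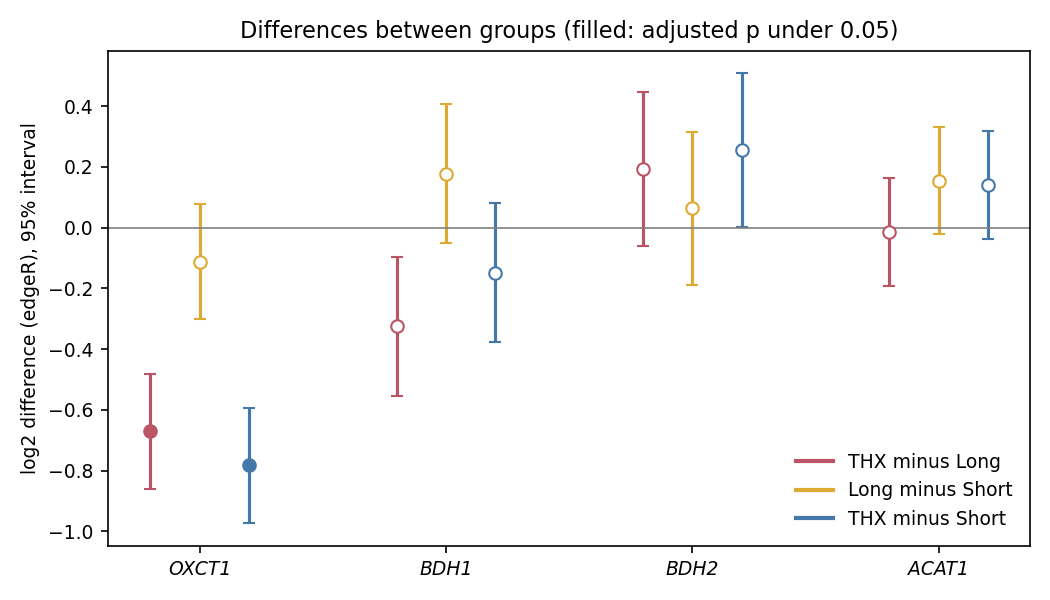
Log2 difference of each gene between groups, from the edgeR fit of all 6 pools, with 95% intervals; filled points have an adjusted p under 0.05. The filled points are OXCT1 in THX minus Long (−0.67) and in THX minus Short (−0.78), and the intervals of the 10 open points reach from −0.55 to 0.51.

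Ratios of counts within a pool do not depend on how libraries are scaled. For every 100 ACAT1 counts there were 149 and 131 OXCT1 counts in Short pools, 119 and 114 in Long pools, and 80.0 and 68.0 in THX pools. The groups did not overlap, and OXCT1 counts went from more than those of ACAT1 in each pool with a thyroid to fewer in each THX pool. Since the genes differ in length, this crossing compares pools and not the abundance of the transcripts. For every 100 BDH2 counts there were 573.5 and 477 OXCT1 counts in Short pools, 498 and 432 in Long pools, and 285 and 228.5 in THX pools. Here Short and Long pools overlapped and the THX pools lay apart.

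The pair of beta-hydroxybutyrate dehydrogenases also stood in another ratio in THX pools. For every 100 BDH2 counts there were 52.3 and 52.1 BDH1 counts in Short pools, 57.25 and 55.8 in Long pools, and 41.1 and 38.0 in THX pools. The THX pools were the lowest, and in Short and Long the 2 pools of a group were closer to each other in this ratio than in the level of either gene. For every 100 ACAT1 counts there were 13.6 and 14.35 BDH1 counts in Short pools, 13.7 and 14.7 in Long pools, and 11.55 and 11.3 in THX pools. BDH2 counts per 100 ACAT1 counts were 25.9 and 27.5 in Short, 23.9 and 26.3 in Long, and 28.1 and 29.8 in THX pools. The differences in ratio were not tested.

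**Figure D3:**
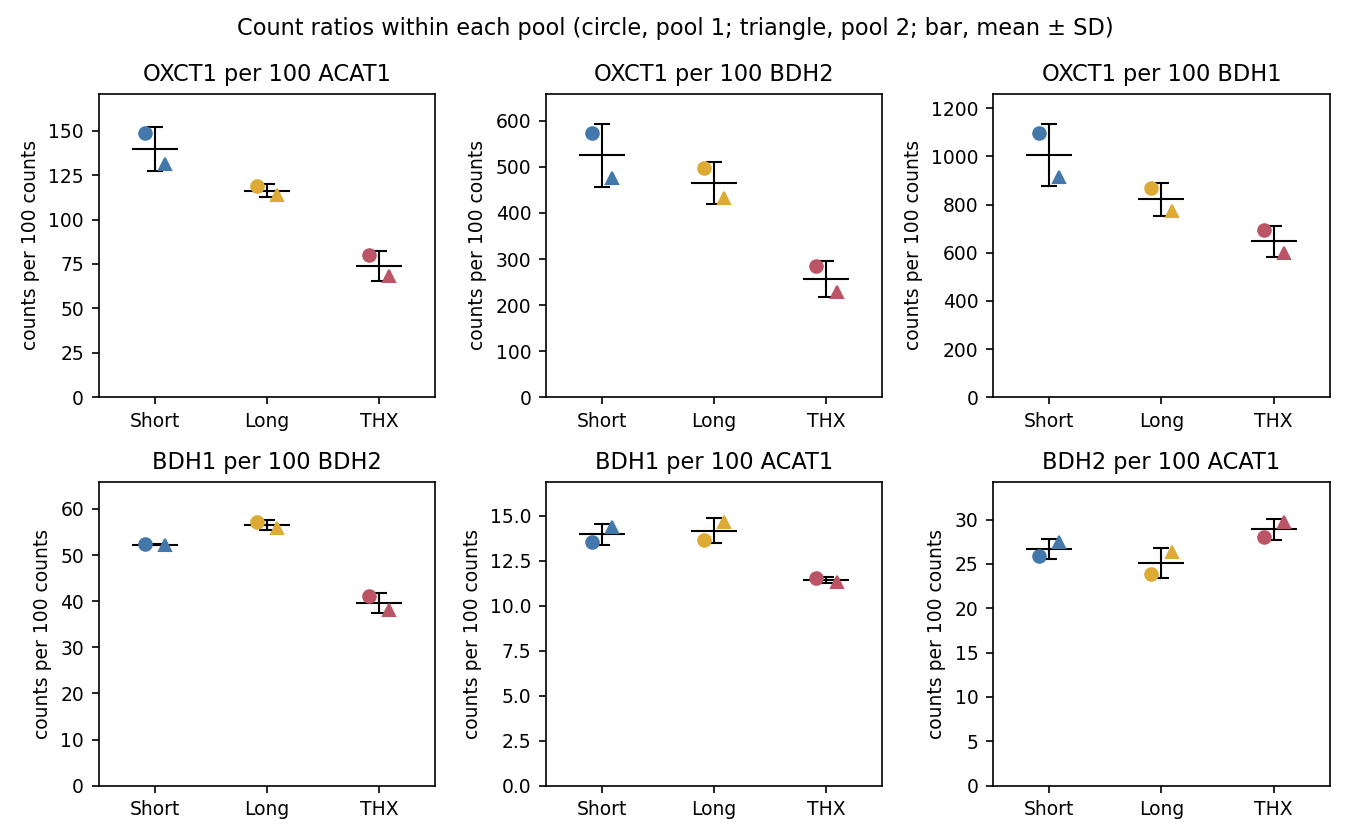
Counts of 1 gene per 100 counts of another within each pool, for the 6 pairs of the 4 genes, with the mean ± SD of each group (circles, pool 1; triangles, pool 2; axes start at 0). OXCT1 per 100 ACAT1 was 114 to 149 in pools with a thyroid and 68.0 and 80.0 in THX pools, and BDH1 per 100 BDH2 was 52.1 to 57.25 and then 38.0 and 41.1.

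The other genes of the pathway showed no change that passed the test. Of 18 further genes of ketone synthesis, transport, sensing and regulation, 12 could be tested, and 0 rose and 0 fell in each of the 3 comparisons by edgeR. An unadjusted p under 0.05 was found for 2 of the 12 in THX against Long, 3 in Long against Short and 4 in THX against Short pools, where 9.08%, 13.8% and 22.6% of all tested genes had one. DESeq2 called 1, 0 and 1 of them in these comparisons, against 2.49%, 0.882% and 9.77% of all tested genes, and limma-voom called 0. In THX against Long pools 6 lay above and 6 below 0 in log2 difference, with a median of −0.01, where the median over all tested genes was 0.00106.

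OXCT2, the close relative of OXCT1 known from testis, had 0 counts in all 6 pools, which allows a level of up to 0.0355 to 0.0598 CPM (3 counts of a pool's scaled total, counting error only). OXCT1 was thus the one gene of this enzyme pair with counts. Among enzymes that use acetoacetate or its CoA ester in the cytosol, AACS, which activates acetoacetate for lipid synthesis, had a mean of 30.9 CPM in Short, 29.9 in Long and 32.3 in THX pools. ACAT2, the cytosolic thiolase, stood at 23.35 and 23.2 CPM in Short, 23.98 and 24.8 in Long, and 27.2 and 29.8 in THX pools. The log2 difference of ACAT2 from Long to THX was 0.22 (interval 0.01 to 0.44, edgeR adjusted p = 0.518). HMGCS1, the cytosolic synthase of the sterol pathway, had means of 52.3, 48.8 and 47.5 CPM in Short, Long and THX pools.

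The transporters SLC16A6 and SLC16A1 and the regulator PPARA did not pass the edgeR test in any of the 3 comparisons. SLC16A6, a monocarboxylate transporter reported to export ketone bodies from liver, stood at 189 and 189.6 CPM in Short, 161 and 176 in Long, and 201 and 210.4 in THX pools. The THX pools were the highest and the Long pools the lowest, with a log2 difference from Long to THX of 0.29 (interval 0.11 to 0.47, edgeR adjusted p = 0.277). DESeq2 called this difference of SLC16A6 at an adjusted p of 0.0492. SLC16A1, a monocarboxylate carrier that moves ketone bodies and lactate, stood at 75.7 and 71.1 CPM in Short, 60.8 and 63.3 in Long, and 65.7 and 55.9 in THX pools. PPARA, the nuclear receptor that drives fat oxidation and ketone formation in liver, had means of 90.7, 76.8 and 74.2 CPM in Short, Long and THX pools. The log2 difference of PPARA from Short to THX was −0.29 (interval −0.49 to −0.09, edgeR adjusted p = 0.13, and 0.0448 by DESeq2).

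PPARGC1A, a coactivator of mitochondrial genes, had means of 108, 94.6 and 94.7 CPM in Short, Long and THX pools. Its log2 difference from Long to THX was 0.00234 (interval −0.22 to 0.23). The mitochondrial deacylases SIRT3 (log2 difference 0.04 from Long to THX) and SIRT5 (0.06) did not pass. SLC16A7, a high-affinity monocarboxylate carrier, was near the lower end of detection at 30 to 81 counts per pool, and so was the beta-hydroxybutyrate receptor HCAR2 at 17 to 34 counts. SLC5A8, FFAR3 and the hormone FGF21 had 0 to 5 counts per pool and were not tested.

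Mitochondrial pathways next to ketone use were then set beside the 4 genes. The 18 genes of the citric acid cycle, which takes up the acetyl-CoA from ketone bodies and supplies the succinyl-CoA that OXCT1 uses, all lay below 0 in THX against Long pools, with a median log2 difference of −0.16 and a range of −0.29 to −0.01. Over all tested genes 49.7% lay below 0. In 14 of the 18 both THX pools were below both Long pools, which held for 18.7% of all tested genes, yet 0 of the 18 passed the test by edgeR, DESeq2 or limma-voom, and 6 had an unadjusted p under 0.05 by edgeR, as did 9.08% of all tested genes. IDH2, a mitochondrial isocitrate dehydrogenase, had the lowest p of them (log2 difference −0.29, edgeR adjusted p = 0.4). SUCLG2, a subunit of succinyl-CoA synthetase, which acts on the same metabolite as OXCT1, had a log2 difference of −0.23 (edgeR adjusted p = 0.427). The other subunits of that enzyme, SUCLG1 and SUCLA2, had log2 differences of −0.24 and −0.15 (edgeR adjusted p = 0.621 and 0.881). Without THX pool 1 the median of the 18 genes was −0.10, and 16 of 18 were below 0.

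In Long against Short pools 16 of the 18 cycle genes lay above 0 (median 0.11), where 49.7% of all tested genes did, a comparison that shares the Long pools with the one above. In THX against Short pools 12 lay below and 6 above 0 (median −0.04), where 51% of all tested genes lay below. Without THX pool 1 that median was 0.02, with 7 below 0. OXCT1 was lower in THX pools also relative to the cycle as a whole. Per 1000 counts of the 18 cycle genes there were 63.5 and 59.3 OXCT1 counts in Short, 53.5 and 51.6 in Long, and 39.65 and 33.9 in THX pools. In this measure ACAT1 was highest in THX pools. It stood at 42.7 and 45.2 in Short, 45.0 and 45.4 in Long, and 49.55 and 49.8 in THX pools. The level of ACAT1 itself differed little from Long to THX (log2 difference −0.01). The summed level of the cycle genes was 4622 and 4534 CPM in Short, 4908 and 4992 in Long, and 4284 and 4638 in THX pools.

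Fatty acid oxidation and leucine and isoleucine breakdown yield the same acetyl-CoA and acetoacetyl-CoA intermediates. Of the 21 genes of mitochondrial fatty acid oxidation, 0 passed in any of the 3 comparisons by edgeR, and DESeq2 called 0, 2 and 4 of them in THX against Long, Long against Short and THX against Short pools, where it called 2.49%, 0.882% and 9.77% of all tested genes. By edgeR 3, 6 and 4 of the 21 had an unadjusted p under 0.05, against 9.08%, 13.8% and 22.6% of all tested genes. The median log2 difference was −0.03 in THX against Long, 0.13 in Long against Short and 0.10 in THX against Short pools. CPT2, which releases long-chain acyl-CoA inside mitochondria, had the lowest p in both comparisons with THX. It stood at 108.6 and 98.97 CPM in Short, 96.8 and 98.3 in Long, and 81.0 and 76.8 in THX pools. Its log2 difference from Long to THX was −0.31 (edgeR adjusted p = 0.264) and from Short to THX −0.40 (edgeR adjusted p = 0.0721). The difference of CPT2 from Short to THX passed by DESeq2 (adjusted p = 0.00115) and without the filter on low counts (0.0302). In Long against Short pools the lowest p of this list was that of ECI2, an enoyl-CoA isomerase (log2 difference 0.38, edgeR adjusted p = 0.342, and 0.0221 by DESeq2).

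Of the 16 genes of leucine and isoleucine breakdown, 14 lay below 0 in THX against Long pools, where 49.7% of all tested genes did. The median of the 16 was −0.05. By edgeR and DESeq2 0 of them passed, and 2 had an unadjusted p under 0.05 by edgeR, as did 9.08% of all tested genes. MCCC2, a subunit of a carboxylase of leucine breakdown, had the lowest p (log2 difference −0.29, edgeR adjusted p = 0.398). By edgeR 0 of the 16 passed in Long against Short or THX against Short pools. An unadjusted p under 0.05 was found there for 5 and 4 of them, against 13.8% and 22.6% of all tested genes. BCAT1, the cytosolic aminotransferase at the head of this pathway, was high in Short pools at 903 and 614 CPM, against 453 and 440.0 in Long and 461 and 322 in THX pools. The THX and Long pools of BCAT1 overlapped. BCAT2, the other aminotransferase of this list, was lowest in Short pools. It stood at 24.36 and 24.42 CPM in Short, 32.1 and 28.65 in Long, and 26.3 and 28.5 in THX pools. Its log2 difference from Short to Long was 0.32 (edgeR adjusted p = 0.342). The log2 difference of BCAT1 from Short to Long was −0.77 (edgeR adjusted p = 0.342, and 0.0263 by DESeq2). It was −0.46 without Short pool 1 and −1.02 without Short pool 2. From Short to THX the difference was −0.95 (edgeR adjusted p = 0.0878), with −0.65 without Short pool 1 and −1.21 without Short pool 2. This second difference passed by DESeq2 (adjusted p = 0.00012), without the filter on low counts (0.0119), with the pool number as a block (0.0314) and without THX pool 1 (0.0417).

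**Figure D4:**
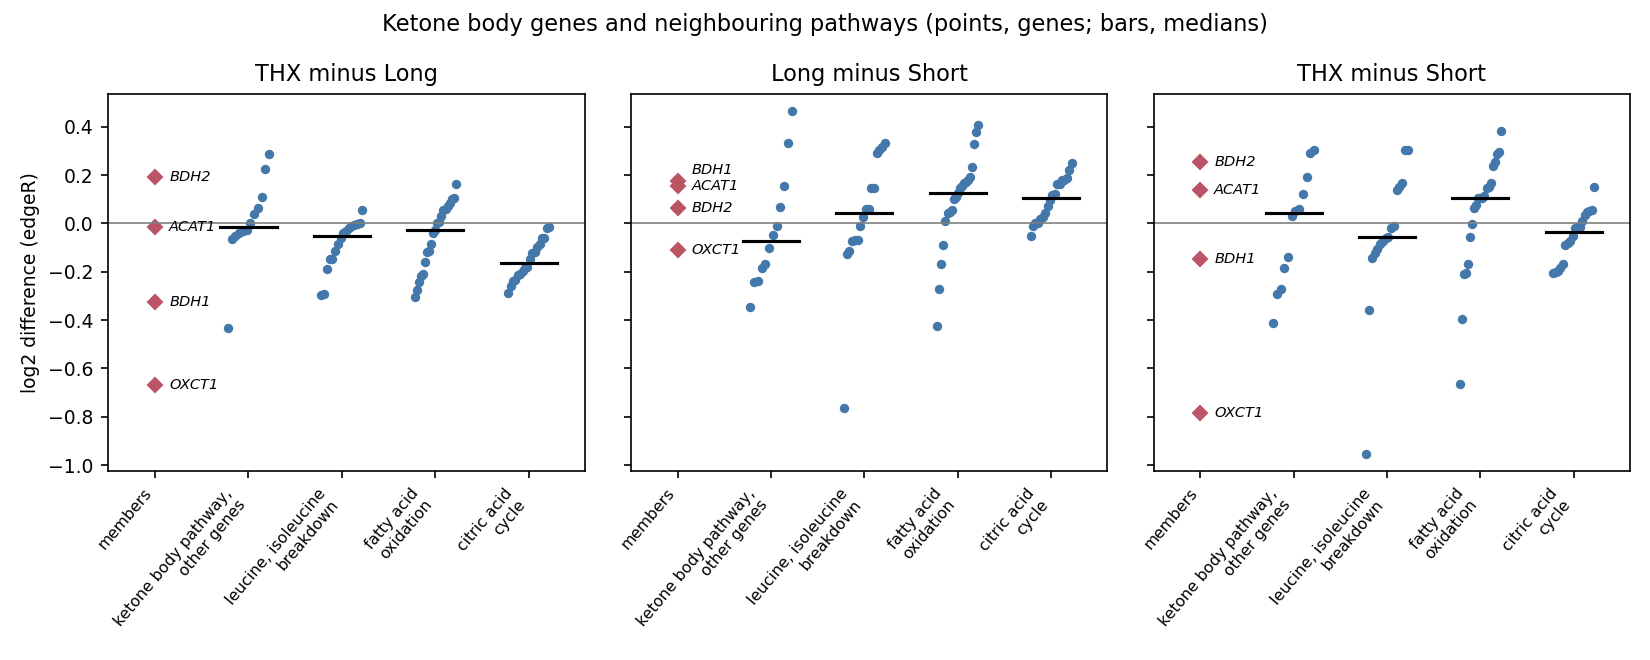
Log2 difference (edgeR) of the 4 genes (diamonds) and of the tested genes of 4 neighbouring lists (points, bars at the medians) in the 3 comparisons. In THX minus Long OXCT1 lies at −0.67, and all 18 citric acid cycle genes lie below 0 with a median of −0.16.

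The 4 genes did not share a pattern over the 6 pools. As a description over 6 pools that include the group differences, with no test, Pearson's r of log2 CPM was 0.631 between OXCT1 and BDH1, −0.841 between OXCT1 and BDH2, −0.521 between OXCT1 and ACAT1, and 0.707 between BDH2 and ACAT1. Among 4836 named genes with a mean of at least 5 CPM that varied over the pools (SD of log2 CPM of at least 0.15), those most like OXCT1 were MARK1 (r = 0.999), a kinase that acts on microtubule-associated proteins, ARHGEF10L (0.997), a guanine nucleotide exchange factor, and KCNK3 (0.997), a background potassium channel. KCNK3 was at 10.01 and 9.36 CPM in Short, 8.47 and 8.52 in Long, and 4.01 and 3.72 in THX pools. MARK1 was at 210.1 and 200.3 CPM in Short, 201 and 197 in Long, and 155.5 and 149.8 in THX pools. The group means of KCNK3 and MARK1 followed the order of OXCT1, with the THX pools lowest. Their range was wider (KCNK3) or narrower (MARK1) than that of OXCT1. Short and Long pools of MARK1 overlapped, unlike those of OXCT1.

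The genes most like BDH1 were TPM2 (r = 0.988), a tropomyosin of contractile cells, LPAR6 (0.981), a lysophosphatidic acid receptor, and TESK2 (0.973), a kinase. TPM2 was at 59.1 and 74.6 CPM in Short, 74.8 and 88.8 in Long, and 54.55 and 57.4 in THX pools. For BDH2 they were LMNB1 (0.994), a nuclear lamin, ATP2C2 (0.981), a calcium pump of the secretory pathway, and PPIH (0.981), a cyclophilin. All of these were higher in pool 2 than in pool 1 of each group, as was BDH2. ATP2C2 was at 1.73 and 5.34 CPM in Short, 2.41 and 9.09 in Long, and 9.36 and 21.4 in THX pools. That is a far wider range than that of BDH2. For ACAT1 they were NDUFS4 (0.997, a subunit of respiratory complex I), LIN37 (0.997) and DCTPP1 (0.995), a nucleotide pyrophosphatase. ACAT1 itself had an SD of log2 CPM of 0.0876, below the 0.15 asked of the genes searched. NDUFS4 was at 43.5 and 48.4 CPM in Short, 57.2 and 61.3 in Long, and 51.3 and 62.75 in THX pools. Correlations this high are easily found with 6 points among so many genes.

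The tissue label was checked against markers of choroid plexus and of other cells. Of 11 epithelial markers, 10 were in the table and all 10 were tested, with summed levels, mostly transthyretin, of 94000 and 99680 CPM in Short, 114300 and 116100 in Long, and 124700 and 146500 in THX pools. The serotonin receptor HTR2C fell in both comparisons with THX and the klotho gene KL in THX against Short, which made 1 and 2 of the 10. The median log2 difference of the 10 was −0.09 and −0.21 in these comparisons, opposite to their summed level. The 6 ependymal markers summed to 571.6 and 667.3 CPM in THX pools and to 451.3, 453.4, 553.7 and 460.2 CPM in the others. The 7 markers of fibroblasts and leptomeninges summed to 441 and 581.5 CPM in THX pools, below the 735 to 846 CPM of Short pool 2 and both Long pools and the 657 of Short pool 1, as OXCT1 was, and 1 of the 6 tested, the proteoglycan LUM, fell in both comparisons with THX. Those of pericytes and smooth muscle summed to 845 and 991 CPM in THX pools and 996 to 1339 CPM in the others. Red blood cell markers stood at 54.0 CPM in Long pool 2 and at 0.478 to 4.59 CPM in the other pools. Neuron markers summed to 330.6 and 339 CPM in THX pools and to 293 to 315 CPM in the others. Over the 6 pools, astrocyte markers summed to 217.5 to 286 CPM and oligodendrocyte markers to 72.75 to 96.55 CPM. Endothelial markers summed to 602 to 746.5 CPM, macrophage markers to 178 to 239 CPM and lymphocyte markers to 17.9 to 26.45 CPM. No listed marker in the table was at 0 in all pools. Their part in the results for OXCT1 and BDH1 was not tested.

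**Figure D5:**
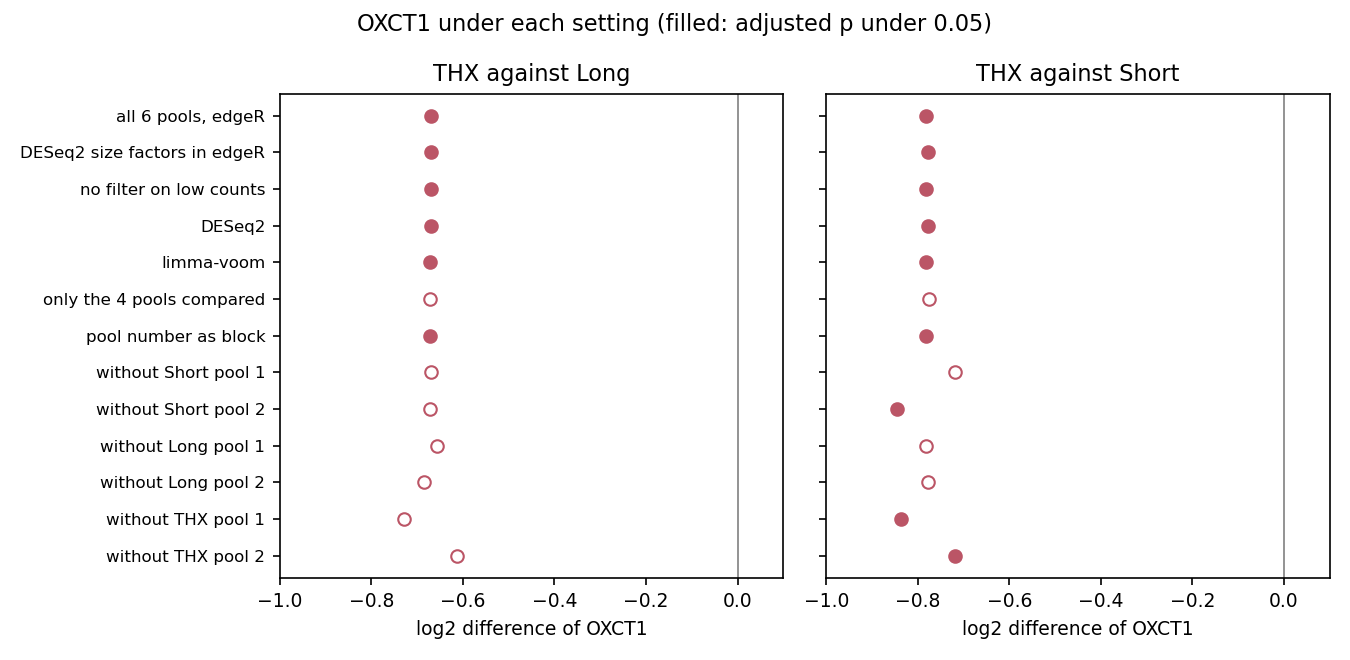
Log2 difference of OXCT1 under each setting, for THX against Long and THX against Short pools; filled points have an adjusted p under 0.05. All values lie between −0.85 and −0.61, and the open points are those with only the 4 pools compared, all 6 omissions of a pool in THX against Long, and the omission of Short pool 1, Long pool 1 or Long pool 2 in THX against Short.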

How the data were processed

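PolyA RNA libraries were made with a stranded kit per the labels' protocols. Reads were processed with bcl2fastq (version 2.20), FastQC (version 0.11.8), MultiQC (version 1.9), TopHat2 (version 2.1.1), SAMtools (version 1.9) and featureCounts (version 2.0.0), the tools that the submitters' processing notes list. The authors deposited raw counts, whole numbers for each gene with no scaling. No source used here gives the genome build, annotation or strand setting, so positions were left out and counts of overlapping genes are uncertain.

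Counts were filtered by edgeR 4.0.16 (R 4.3.3, default expression filter for 3 groups), scaled by TMM and fitted with 1 mean per group over all 6 pools (3 residual and 3.96 prior degrees of freedom). Two-sided quasi-likelihood tests were adjusted over 18019 genes by the Benjamini-Hochberg method. The procedure was also run on simulated counts with pools drawn independently. Such counts cannot show how it behaves where pools of the same number share an effect. A p-value here reflects how much pools vary, not ewes. Pools of a group differed by 16.2 to 71.4 times the variance of counting alone, so none was the same library counted again. This measure cannot tell a second library of the same RNA from a pool of other ewes. The labels do not say that a pool number marks a shared batch, and the main fit assumed no pairing. Deviations of pools with the same number correlated between groups at −0.0586 to 0.211. In every group OXCT1 was lower in pool 2 than in pool 1, and BDH1, BDH2 and ACAT1 were higher. Alternatives used DESeq2 1.42.0, limma 3.58.1, other scaling, no filter, fewer pools and a pool number term.

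The members and lists were chosen with earlier results of these data known. Named were the 4 members, the listed genes of the ketone pathway, called genes or the gene with the lowest p of each other list, the 3 genes most like each member, HR and KLF9. SUCLG1, SUCLG2 and SUCLA2 in THX against Long, BCAT2 and the markers were named beyond that rule. The SUCLG1, SUCLG2, SUCLA2 and BCAT2 genes were named after their values were seen. Some genes that the rule takes, though counted in their lists, are not reported here. Identifiers without a symbol were named from a RefSeq table (471 of 15527). Figures were drawn with matplotlib 3.10.9.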

Additional observations from a re-analysis of the deposited data

How the results depend on the processing

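The number of genes called in THX against Long pools (51) was 204 without the filter, 448 by DESeq2, 22 with only the 4 pools compared and 2 to 37 with 1 pool left out. In THX against Short pools (165) it was 908, 1761, 11 and 10 to 1087. In Long against Short pools (0) it was 159 by DESeq2 and 0 to 4 with 1 pool left out. With the pool number as a block it was 48, 392 and 0 in the same order; the pools share only a number, and the cause of the change was not tested. In the fit with this block OXCT1 passed in THX against Long (log2 difference −0.67, adjusted p = 0.0262) and THX against Short (−0.78, adjusted p = 0.0161), and no other member passed in any alternative. OXCT1 passed in 5 of 12 alternatives in THX against Long and 8 of 12 in THX against Short.

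Some small differences changed sign when 1 pool was left out. Their ranges in THX against Long were −0.0742 to 0.0431 (ACAT1), −0.152 to 0.0856 (SLC16A1), −0.492 to 0.32 (SLC16A7), −0.103 to 0.00424 (PPARA), −0.0228 to 0.028 (PPARGC1A), −0.126 to 0.0465 (HMGCS1), −0.0288 to 0.237 (AACS), −0.0852 to 0.228 (SIRT5) and −0.0754 to 0.144 (SIRT3). In Long against Short they were −0.0221 to 0.149 (BDH2), −0.142 to 0.0536 (AACS), −0.172 to 0.136 (SIRT5), −0.0283 to 0.0828 (SUCLG2) and −0.127 to 0.0523 (KLF9), and in THX against Short −0.0721 to 0.194 (AACS), −0.402 to 0.461 (HCAR2) and −0.0567 to 0.16 (SIRT5). The median of the citric acid cycle genes in THX against Short ran from −0.0712 to 0.0187. Fits that leave a group with 1 pool assume that it varies like the others.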
